A study of Rattus norvegicus with 20 samples.

Results

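Oxidative phosphorylation is the last stage of respiration in mitochondria. Complexes I to IV pass electrons from NADH and succinate to oxygen, complexes I, III and IV pump protons across the inner membrane, and complex V, the ATP synthase, uses the returning protons to make ATP. Most subunits are encoded in the nucleus and the remainder in mitochondrial DNA, and neurons depend heavily on this pathway for the ion pumping that follows firing. The nuclear genes of the pathway were examined in the hypothalamic arcuate nucleus (ARC), a nucleus that controls feeding and hormone release, of female Sprague-Dawley rats on postnatal day 15. Members were the genes whose name on the array begins with Nduf (complex I), Sdha to Sdhd (complex II), Uqcr (complex III), Cox4 to Cox8 (complex IV) or Atp5 (complex V), with at least 1 probe that the scanner software marked as well above background in every sample of some group. Of 94 genes so named among 25885 on the array, 92 passed, represented by 115 of 118 probes, and Ndufaf2 and Cox8c did not. In all, 17072 genes passed the same filter.

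The 20 samples formed 5 groups of 4. SNS rats were exposed to saline before birth, had no spasms and received saline. BNS rats were exposed to betamethasone, a synthetic glucocorticoid, at 0.4 mg/kg in 2 injections on gestational day 15, had no spasms and received saline. BYS rats had the same betamethasone exposure and, on postnatal days 12, 13 and 15, spasms triggered by NMDA, an agonist of a class of glutamate receptors, and received saline. BYA rats were treated like BYS rats but received ACTH, the pituitary hormone used against infantile spasms, and BYP rats received PMX53, an antagonist of the complement receptor C5ar1, in place of saline. The labels give days 13 to 15 for the treatments, whereas the methods start them on day 12. Thus betamethasone exposure was shared by BNS, BYS, BYA and BYP, and NMDA spasms by BYS, BYA and BYP. Each sample was 1 channel of a 2-colour array, the other channel holding an animal of the same group, or, for 2 BYA samples, an animal not analysed here. For 1 of these (BYA replicate 3) the dye in the labels did not match the order of names in the raw data title, and the labelled dye was used. Each group lay on a slide of its own, except that BYA spanned 2 slides, so slide and group cannot be told apart. Litters had been reduced to 4 females and the labels do not say which animals were littermates, so p-values measure the spread between these samples only.

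Levels below are log2 intensities after background correction and quantile normalization, averaged over the probes of a gene. Differences were tested with limma (two-sided, dye as covariate) and p-values were adjusted over all genes by the Benjamini-Hochberg method. A gene was called at an adjusted p under 0.05. The median signal was 5.475 to 10.69 times the local background in SNS samples, 13.25 to 18.98 times in BNS and BYS samples, and 6.315 to 10.25 times in BYA and BYP samples. Of 8 markers of arcuate neurons, 7 (Agrp, Npy, Pomc, Cartpt, Kiss1, Tac3 and Ghrh) were well above background in all 20 samples and Slc6a3 in 12. Because tissue was profiled in bulk, fewer cells of a type and less RNA per cell cannot be told apart.

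The members comprised 7 core subunits of complex I, 29 accessory subunits of complex I, 4 subunits of complex II, 8 of complex III, 14 of complex IV, 15 of complex V, 10 assembly and related factors, and 5 copies of other members (pseudogenes or near copies, whose probes may also take up RNA of the parent gene). A probe was well above background in all 20 samples for 89 members. The exceptions were Cox8b, the heart and muscle isoform of a complex IV subunit, Ndufaf1, a complex I assembly factor, and Uqcrq, a small complex III subunit. Cox8b was not well above background in any SNS, BYA or BYP sample and passed through the BYS group, so no fold is given for it. No member was saturated in any sample.

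Expression of many of these genes is known to be driven by the transcription factors NRF1, GABPA (an ETS factor) and YY1. RefSeq promoters (rat build GRCr8, 250 bases before to 50 after the start of the gene) were found for 76 members and searched on both strands for GCGCATGCG (NRF1), CCGGAAGT (ETS) and AAGATGGCG (YY1). The NRF1 letters were in 8 of the 76 promoters (10.5%, against 1.61% of all 27457 promoters), the ETS letters in 8 (10.5% against 4.02%) and the YY1 letters in 10 (13.2% against 1.90%). At least 1 of the 3 motifs was in 25 (32.9% against 7.07%), and 1 promoter held more than 1 of them. NRF1 matches of 7 members are shown because this factor is the best known regulator shared by the list, with the first match in capitals and 10 bases on each side, 5′ to 3′ on the strand of the gene:
Atp5g2 (complex V, 56 bases before the start, chr7:135678256-135678284, minus strand): ggctctagtcGCGCATGCGcagagccttc
Atp5i (complex V, 76 bases before the start, chr14:1464774-1464802, plus strand): ttgcgctacgGCGCATGCGctttcctggc
Atp5o (complex V, 59 bases before the start, chr11:44657524-44657552, minus strand): acgccgacgcGCGCATGCGctctggcatc
Ndufa11 (complex I, 97 bases before the start, chr9:1637507-1637535, plus strand): cctgcgctgtGCGCATGCGcatgcgcaca
Ndufaf4 (complex I assembly, 158 bases before the start, chr5:43401627-43401655, plus strand): gcagtagtccGCGCATGCGcccctgtgga
Ndufaf5 (complex I assembly, 15 bases before the start, chr3:147961587-147961615, plus strand): agtccctttgGCGCATGCGcacaatagaa
Uqcrc1 (complex III, 39 bases before the start, chr8:118468174-118468202, plus strand): actccaccctGCGCATGCGtagcgcggct
A match is a description of letters only and was not related to any difference between groups.

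Taken as a list, the 92 members were level across the 5 groups. The level of the list in a sample, the mean over members after each gene was centred on its mean over the 20 samples, averaged 0.01 ± 0.05 for SNS, 0.04 ± 0.03 for BNS, -0.01 ± 0.03 for BYS, -0.01 ± 0.04 for BYA and -0.03 ± 0.04 for BYP (log2, SD, n = 4 each). Single samples lay between -0.06 and 0.07, and the groups overlapped. With the correction for spot position given below, SNS samples were at -0.047 to 0.008 and BNS samples at 0.012 to 0.067, without overlap. With the processed signals of the scanner software they were at -0.093 to -0.005 and 0.02 to 0.086, also without overlap. The complexes varied somewhat more. The 7 core subunits of complex I, which carry the flavin and the iron-sulfur clusters, had levels of -0.14, -0.20, -0.28 and -0.30 in the SNS samples and between -0.07 and 0.14 in the other 16, without overlap. Of the 7, 2 were called in BNS minus SNS (28.6% of all genes), the median difference was 0.09, Ndufs8 was at -0.38, and Ndufv1, called at 0.68, was at 0.04 after the correction for spot position given below. The 8 complex III genes were lowest in BYP (-0.11 ± 0.15), where replicates 1 and 2 stood at -0.30 and -0.18 and replicates 3 and 4 at 0.01 and 0.02. Of the 8, Uqcrc2 was at 11.31 and 12.42 in BYP replicates 1 and 2 and at 14.01 and 13.90 in replicates 3 and 4. The level of complex III without Uqcrc2 was not computed. Complex IV, which reduces oxygen, spread most within a group in BYA (0.01 ± 0.20), and complex V was between -0.08 and 0.08 in all 20 samples. The 5 copies were between 0.33 and 0.48 in SNS and between -0.38 and 0.16 in the other 16 samples, also without overlap. With the correction for spot position, none of the 5 was called in BNS minus SNS. Cox6c-ps1, Ndufb4l1, Atp5hl1, Ndufa10l1 and Ndufa7l were then at -0.49, -0.20, -0.11, -0.08 and -0.03. These list levels rest on quantile normalization: with each channel only shifted to a common median, the list ranged from -1.15 to 0.49 between samples, and with a common upper quartile from -0.18 to 0.21.

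**Figure D1:**
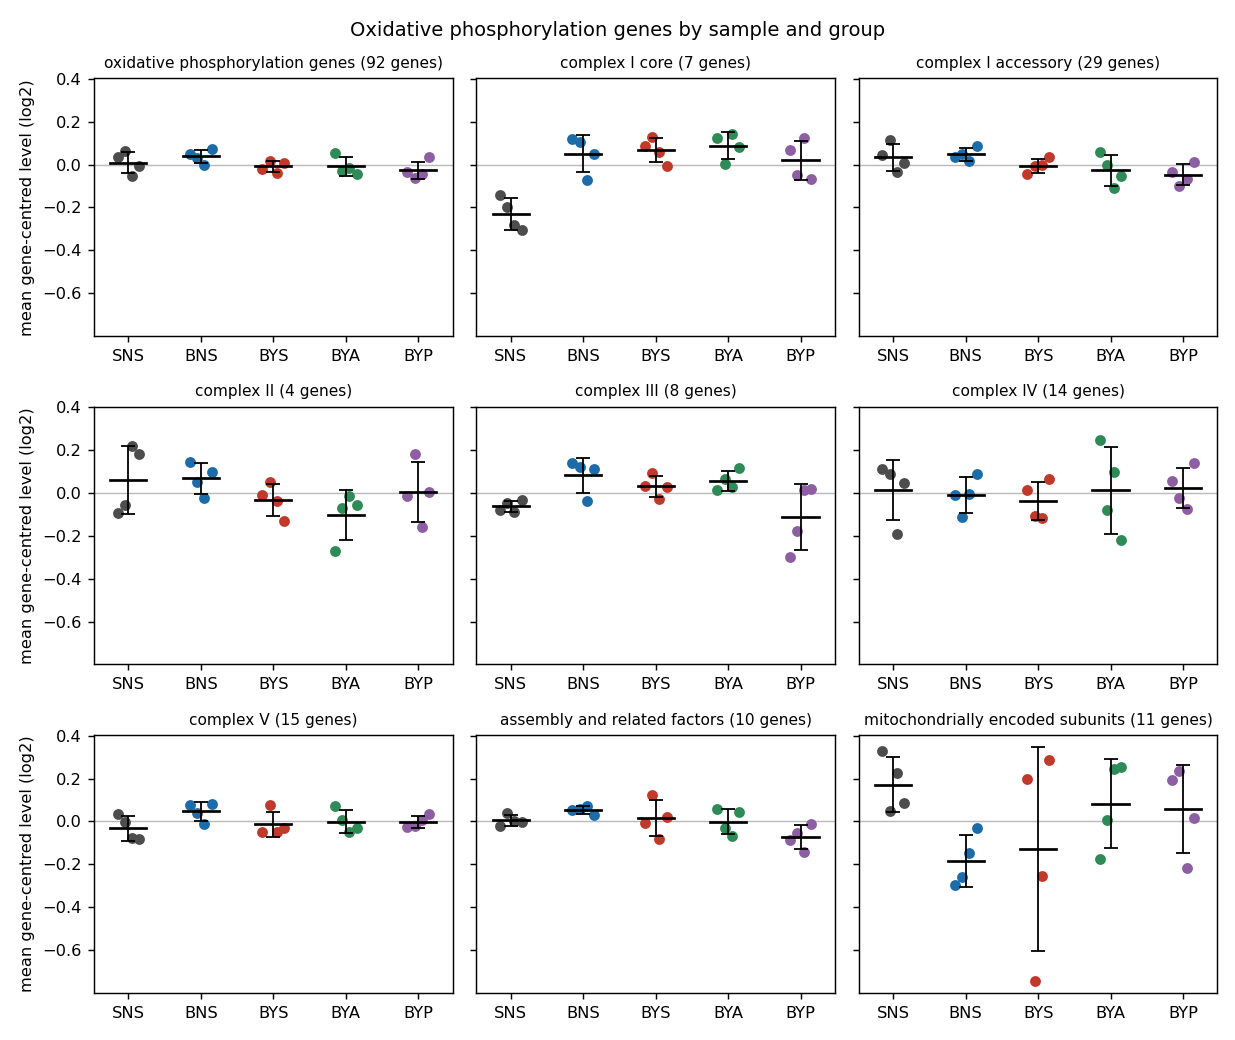
Mean gene-centred log2 level (vertical axis) of the whole list, each complex, the assembly and related factors and the mitochondrially encoded subunits in the 20 samples (points), by group (horizontal axis), with group mean and SD (bars, n = 4). The whole list stays between -0.06 and 0.07 in every sample, the complex I core is below -0.1 in the SNS samples only, and the mitochondrially encoded subunits spread most, from -0.75 to 0.29 within BYS.

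The subunits encoded in mitochondrial DNA, of which 11 were identified from the probe descriptions, were examined beside the nuclear genes. Their list level was 0.17 ± 0.13 for SNS, -0.18 ± 0.12 for BNS, -0.13 ± 0.48 for BYS, 0.08 ± 0.21 for BYA and 0.06 ± 0.21 for BYP. The 4 BYS samples were at 0.20, -0.75, -0.26 and 0.29, so that the spread within this group exceeded the differences between group means. Only mt-Nd4l, a membrane subunit of complex I, was called in any comparison, 1 of 11 where 28.6% of all genes were called in BNS minus SNS: it was lower in BNS than in SNS (14.38 ± 0.40 against 15.23 ± 0.23, adjusted p = 0.029), and the median of the 11 differences was -0.30, compared with -0.04 over all genes. After the correction for spot position given below, the mt-Nd4l call was lost and none of the 11 was called in that comparison. The median of the 11 differences was then -0.29, compared with -0.01 over all genes, and 1 of the 11 lay above 0.

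The comparison of BNS with SNS asks what prenatal betamethasone alone left in the ARC by day 15. Of 91 members tested (Ndufb6 had no usable spot in SNS), 26 were called (28.6%), 12 higher and 14 lower in BNS, where 28.6% of all 17069 genes tested were called, 15.1% higher and 13.4% lower. The median difference of the members was -0.08 and that of all genes -0.04. With the array as a random block, because 2 samples share each array, 14 members were called (12 higher, 2 lower), where 15.2% of all genes were. The calls lay in every complex but complex II: 2 of 7 core and 6 of 28 accessory subunits of complex I, 3 of 8 in complex III, 3 of 14 in complex IV, 3 of 15 in complex V, 5 of 10 assembly and related factors, and 4 of 5 copies.

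Large rises were seen in Ndufa9, Atp5o, Sdhaf2 and Cox7c, the values of which after a correction for spot position are given below. Ndufa9, an accessory subunit at the junction of the arms of complex I, was at 11.31, 11.25, 11.02 and 11.31 in SNS and at 12.88, 12.59, 12.34 and 12.64 in BNS, a difference of 1.39 ± 0.13 (SE, adjusted p = 7.5e-07). Atp5o, part of the stalk that holds the ATP synthase together, was at 14.52, 14.42, 14.87 and 14.64 in SNS and at 16.10, 15.86, 15.90 and 15.94 in BNS (difference 1.34 ± 0.15, adjusted p = 3.8e-06). In both genes every BNS sample was above every SNS sample, but lack of overlap was part of the rule for naming genes. Groups did not overlap for 38 of 91 members and 33% of all genes. Sdhaf2, which attaches flavin to the complex II subunit Sdha, was at 12.20, 11.99, 12.42 and 12.28 in SNS and at 13.48, 13.46, 13.60 and 13.38 in BNS (1.26 ± 0.10, adjusted p = 1.1e-07). Cox7c, a small complex IV subunit, was at 9.83, 9.89, 10.19 and 10.18 in SNS and at 10.91, 10.91, 11.26 and 11.22 in BNS (1.05 ± 0.16, adjusted p = 1.0e-04). For these 4 genes the BYS, BYA and BYP samples lay with BNS, above every SNS sample.

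The largest falls were smaller and included copies of other genes. Cox6c-ps1, a pseudogene of the complex IV subunit Cox6c, was at 11.54, 11.56, 11.41 and 11.31 in SNS and between 10.41 and 10.82 in BNS (-0.85 ± 0.19, adjusted p = 0.0034). Cox6c itself fell by 0.43 (SE 0.14, adjusted p = 0.025), from 15.87, 16.03, 15.94 and 16.35 to 15.46, 15.58, 15.66 and 15.77. The complex I accessory subunit Ndufa3 (-0.55 ± 0.16, adjusted p = 0.018), the copy Ndufb4l1 (-0.53 ± 0.18, adjusted p = 0.035) and the complex I assembly factor Ndufaf6 (-0.50 ± 0.18, adjusted p = 0.041) also fell. Of these 5, the calls of Ndufa3, Ndufb4l1, Ndufaf6 and Cox6c were lost with the array as a random block (adjusted p of 0.080, 0.087, 0.13 and 0.12). Among the 13 catalytic and central subunits, the flavoprotein Ndufv1 rose (0.68 ± 0.08, adjusted p = 1.6e-05) and Uqcrc1 fell by 0.29 (adjusted p = 0.045, a call lost when arrays entered as a random block), while Ndufs1, Sdha, Sdhb, Sdhc, Sdhd, Uqcrc2, Uqcrfs1, Cox4i1, Cox5a, Atp5a1 and Atp5b did not pass.

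**Figure D2:**
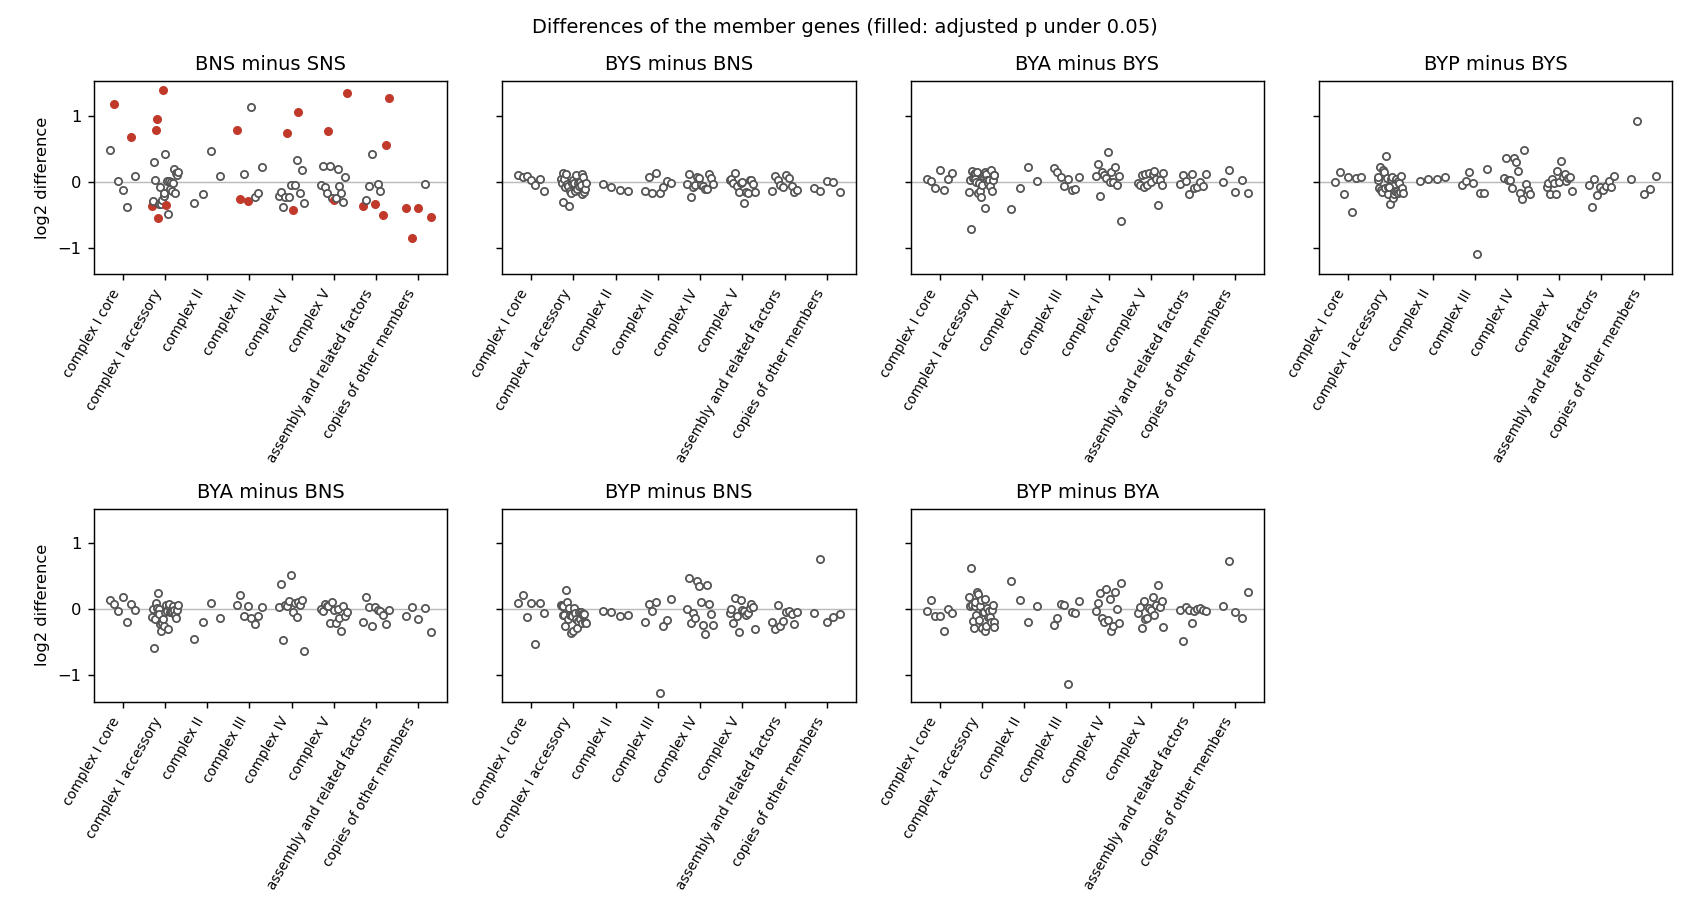
Log2 difference (vertical axis) of each member gene (points) by its place in the pathway (horizontal axis) in the 7 comparisons, with genes called at an adjusted p under 0.05 filled. Filled points occur only in BNS minus SNS, 12 above and 14 below 0, and in the other 6 panels most points lie within 0.5 of 0.

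The direction of the calls went together with the position of the spot on the SNS arrays. For each sample, the local deviation at a spot was taken as the median, over neighbouring spots within 10 rows and 4 columns, of the deviation from the median of the 20 samples. In the SNS samples the 5th and 95th percentiles of this deviation reached -0.65 and 0.49, and its SD was 0.29 to 0.33, against 0.05 to 0.12 in the other 16 samples. A dim diagonal band lay across all 4 SNS samples, which were the 2 channels of 2 arrays. At the spots of the 12 members called higher, the BNS minus SNS difference of the neighbours had a median of 0.45 and was above 0 for all 12, and at the spots of the 14 called lower it had a median of -0.31 and was below 0 for all 14. Over the 59 members with a single spot, the difference of a member and that of its neighbours had a Pearson correlation of 0.87, a description across genes that share the same 8 samples. The same correlation over 13611 genes with a single spot was 0.74. In the comparisons other than BNS minus SNS it was 0.30 to 0.60 over 60 members, highest in BYP minus BYA, and 0.30 to 0.41 over all genes. Outside SNS, the SD of the local deviation was highest in BYA replicates 1, 2 and 4 (0.12 each).

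**Figure D3:**
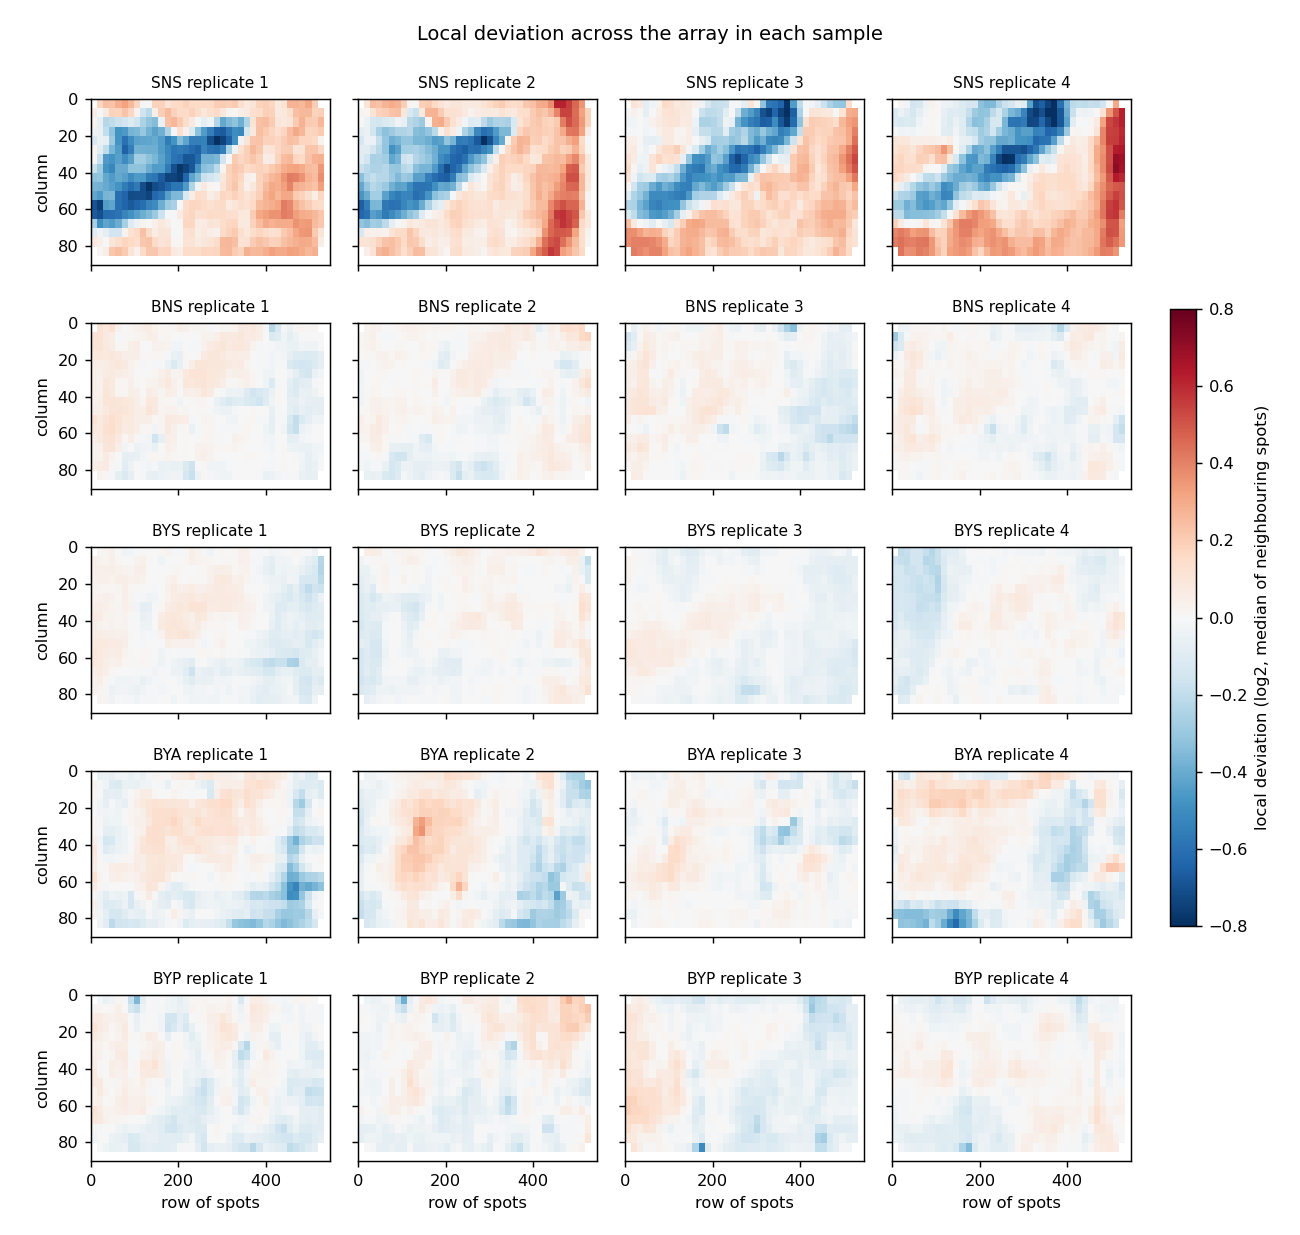
Local deviation (colour, log2) across the rows (horizontal axis) and columns (vertical axis) of spots in each of the 20 samples. The 4 SNS samples show a dim diagonal band, with an SD of 0.29 to 0.33, and the other 16 samples are flatter, with an SD of 0.05 to 0.12.

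**Figure D4:**
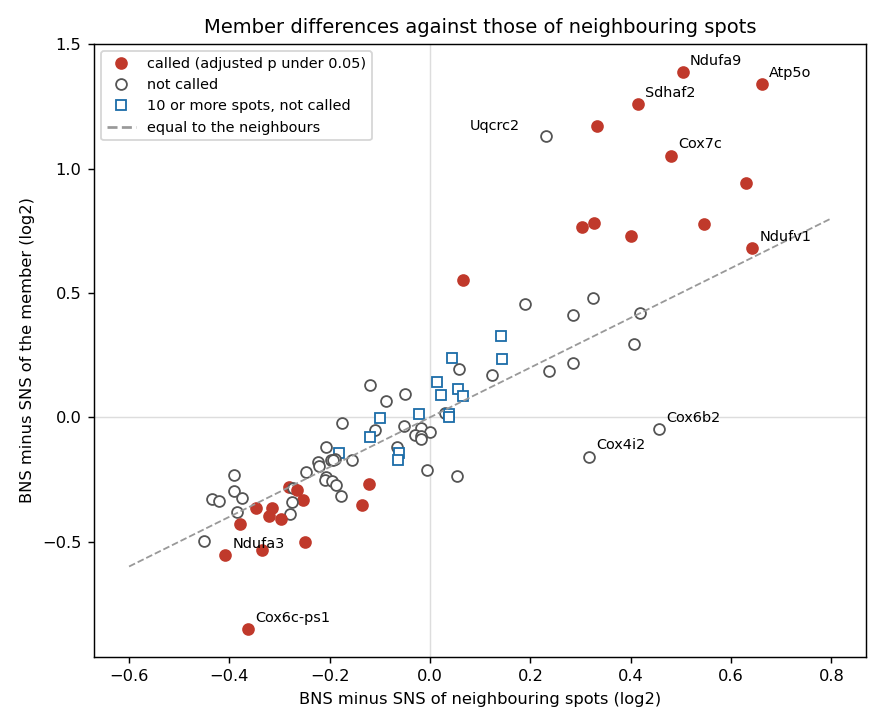
BNS minus SNS log2 difference of each member (vertical axis) against that of the spots around it (horizontal axis), with called members filled and members with 10 or more spots as squares. The 12 members called higher lie at the right and the 14 called lower at the left, and no member with a probe of 10 spots is called at the level of the gene.

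For 15 members the array carries a probe in 10 copies spread over its surface, among them Atp5b, the catalytic subunit of ATP synthase, Sdhd, Cox8a, Ndufs3, Ndufv2 and Uqcrb. None of the 15 was called in BNS minus SNS (differences from -0.17 to 0.33, lowest adjusted p = 0.13, and 0 at an unadjusted p under 0.05), whereas 22 of 59 members with a single spot were. For Ndufv3, a small complex I subunit, the probe with 10 spots was itself called (0.48 ± 0.09, adjusted p = 9.7e-04, neighbours at 0.19), and the level of the gene also averages a pair of single-spot probes at -0.12 and 0.06. Over all genes, 11.2% of 1249 genes with such a probe and 30.8% of 13611 single-spot genes were called. Atp5b, for example, was at 13.02, 12.95, 12.60 and 12.69 in SNS and at 13.31, 13.16, 12.68 and 13.08 in BNS.

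Probes of 1 gene at different places also differed. Of 19 members with more than 1 probe, 11 had probes with BNS minus SNS differences of both signs, and only Ndufaf4, a complex I assembly factor, had probes called in opposite directions (0.37 and -0.53). The 2 probes of a gene carry the same gene name on the array, and whether they detect the same transcript was not tested. The first 30 bases of the 60-base probes of 3 genes with both signs, chosen after their values were seen, are shown, with probe A and probe B as plotted:
Ndufaf7 probe A: cctacaggatacagcttttatctcgcacat
Ndufaf7 probe B: ggaccaggctagaacacttgaaagaagtaa
Ndufb10 probe A: caccagacaaagaactcttgttcatccact
Ndufb10 probe B: tattctgccaggaagtgcctggcaaagcag
Atp5j2 probe A: ccttcacaccccaaccaagaactagtgtcc
Atp5j2 probe B: agaagctcatggaggttaaacttagagagc
For Ndufaf7, a methyltransferase needed for complex I assembly, probe B differed by 1.31 ± 0.10 (adjusted p = 7.6e-08), with neighbours at 0.53, and probe A by -0.21 ± 0.12 (adjusted p = 0.21), with neighbours at -0.40. For Ndufb10, a complex I accessory subunit, probe B differed by 1.19 ± 0.11 with neighbours at 0.58, and probe A by -0.17 ± 0.21 with neighbours at -0.16. For Atp5j2, a membrane subunit of ATP synthase, probe B differed by 1.12 ± 0.09 with neighbours at 0.31, and probe A by -0.32 ± 0.12 with neighbours at -0.18. Probe B of Ndufb10 and of Atp5j2 was missing in 2 SNS samples each, so the level of these genes came from probe A.

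**Figure D5:**
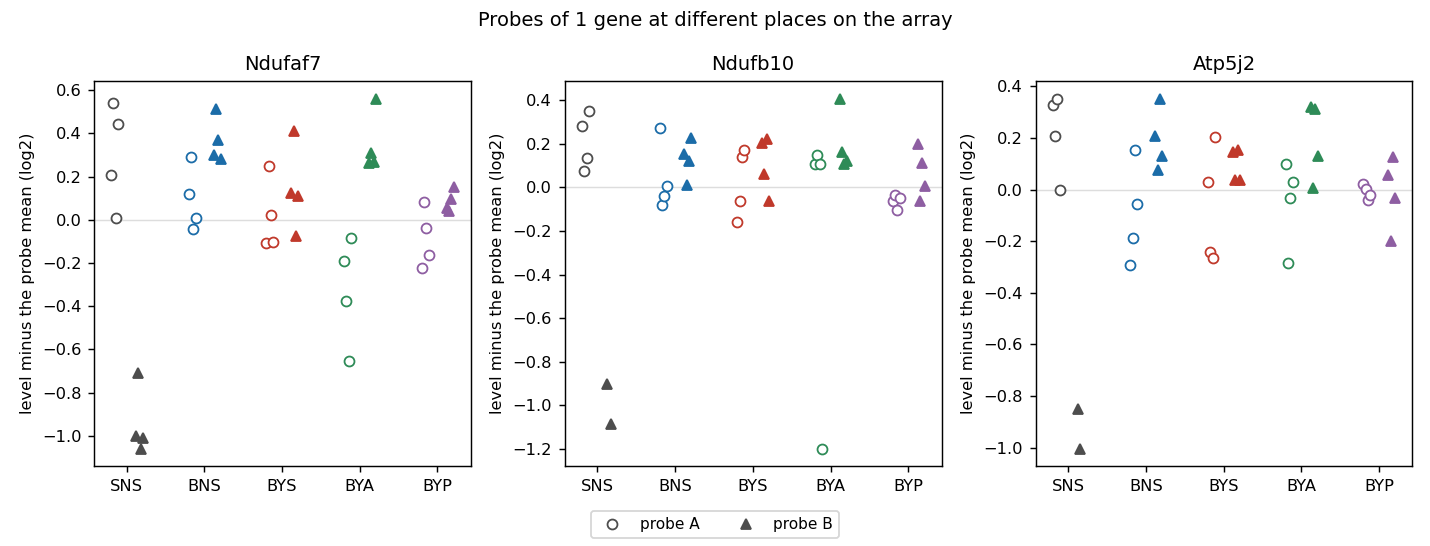
Log2 level of the 2 probes of Ndufaf7, Ndufb10 and Atp5j2 (vertical axis, each minus its own mean) in the samples of each group (horizontal axis), probe A as open circles and probe B as filled triangles. Probe B is below its mean in every SNS sample measured, and below every sample of the other groups, while probe A is at or above its mean in all 4 SNS samples.

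When the local deviation was subtracted from every spot, an alternative added after the pattern was seen, 9 of 91 members were called in BNS minus SNS, where 8.23% of all genes were. Of the 12 rises, 8 kept their call (Sdhaf2, Ndufa9, Ndufaf7, Ndufa13, Atp5o, Atp5e and Cox7c among them), with corrected differences of 0.45 to 0.89. Ndufa9 was then at 0.89, Sdhaf2 at 0.84, Atp5o at 0.68 and Cox7c at 0.57, and Cox7c lost its call with the array as a random block in addition (adjusted p = 0.10). Atp5o also lost its call, without the correction, when channels were scaled to a common median (0.79, adjusted p = 0.060). None of the 14 falls kept theirs, Cox6c-ps1 having a corrected difference of -0.49 (adjusted p = 0.067) and Cox6c of -0.05 (adjusted p = 0.84). Ndufv1 moved from 0.68 to 0.04 (adjusted p = 0.84). Cox6b2, the testis-type isoform of a complex IV subunit, was called lower after the correction (-0.50, adjusted p = 0.030) and with the processed signals of the scanner software (-0.60, adjusted p = 0.023), but not before. With the array as a random block as well, 6 members were called, where 3.70% of all genes were, all higher (Sdhaf2, Ndufa9, Ndufaf7, Ndufa13 and Atp5o among them). Of the 2 probes of Ndufaf7 only probe B was called without the correction.

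Genes of neighbouring pathways were also called in BNS minus SNS. Among 22 carriers and electron transfer partners, 9 were higher and 1 lower (28.6% of all genes called), and after the local correction 8 were called, all higher (8.23% of all genes), the largest difference being that of Slc25a4, the heart and brain form of the ADP/ATP carrier, which was at 13.36 to 13.48 in SNS and 15.16 to 15.28 in BNS (1.80 ± 0.13, adjusted p = 6.3e-08, and 1.04 with adjusted p = 1.0e-04 after the local correction). Cycs, the mobile carrier cytochrome c, and Cyc1, its partner in complex III, were not called (-0.10 and -0.18). Of 20 regulators of mitochondrial biogenesis 7 were higher and 6 lower, and 1 was called after the local correction. Nrf1, the factor whose motif is shown above, went from 0.54 (adjusted p = 3.3e-04) to 0.02 (adjusted p = 0.89), Tfam, which packages mitochondrial DNA, from 0.80 (adjusted p = 0.020, with 0.53 and 0.60 and adjusted p of 0.081 and 0.078 without SNS replicates 1 and 2) to 0.59 (adjusted p = 0.051), and the coactivator Ppargc1a was at 0.11 (adjusted p = 0.49). Of 25 assembly factors of complexes III, IV and V, 6 were higher and 6 lower, of 16 genes of the TCA cycle 2 and 4, of 22 glycolytic genes 3 and 2, of 66 mitochondrial ribosomal genes 11 and 12, of 93 cytosolic ribosomal genes 16 and 6, and of 37 proteasome genes 4 and 6. After the local correction, 2, 1, 2, 4, 10 and 2 genes of these 6 lists were called. Markers of red blood cells also differed, with 2 of 3 called higher in BNS (Hba1 by 0.71 and Alas2 by 0.99), while their summed level overlapped, at 16.48 to 16.86 in SNS and 16.68 to 17.15 in BNS. The summed levels of 5 microglial markers (13.51 to 13.62 in SNS, 13.06 to 13.46 in BNS, 1 of 5 called, Cx3cr1) and of 2 measured choroid plexus markers (11.69 to 12.75 and 10.76 to 11.48, neither called) did not overlap. The part of these cell types in the results was not tested.

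The comparison of BYS with BNS asks what the NMDA spasms added in primed rats. No member was called, where 0.0293% of all 17072 genes were, and 1 member had an unadjusted p under 0.05, where 6.92% of all genes did. The median difference of the members was -0.04 (range -0.37 to 0.13) and that of all genes 0.00. The 95% interval of a member's difference had a median half-width of 0.28, and the interval lay within 0.5 of 0 for 77 of 92 members and within 1 of 0 for 90. Thus, with samples taken as independent, changes of 2-fold (1 on the log2 scale) lay outside the interval for nearly all members. Smaller ones were not resolved for each gene. These intervals leave out that pairs of samples share an array (consensus correlation within arrays 0.365), and they do not cover the spread between slides. The 5 members with the lowest p, which did not pass, were Atp5g3 (a gene for the membrane ring subunit of ATP synthase), Ndufa7, Uqcrb, Ndufa12 and Ndufaf7, with differences of -0.33, -0.37, -0.18, -0.31 and -0.15 and adjusted p from 0.59 to 0.86. Leaving out 1 BYS sample brought those of Ndufa7, Ndufa12 and Ndufaf7 to -0.23 (without replicate 2), -0.16 (replicate 1) and -0.10 (replicate 4). Atp5g3 was at 13.81, 13.85, 13.49 and 13.69 in BNS and at 13.06, 13.77, 13.39 and 13.30 in BYS, with overlap. Its 2 probes differed: 1 averaged 12.449 in BNS and 11.806 in BYS, and the other 14.967 and 14.952. Uqcrb was the only member whose groups did not overlap, where 6.46% of all genes did not.

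The comparisons of BYA and BYP with BYS ask what the treatments changed in rats with spasms; both use the same BYS samples. For ACTH, no member was called, where 0% of all genes were, and 5 members had an unadjusted p under 0.05, where 8.08% of all genes did. The median difference was 0.02 and the range -0.72 to 0.45. The lowest p belonged to Cox6b2 (0.45 ± 0.14, adjusted p = 0.40) and to Ndufa4, a subunit now assigned to complex IV (-0.59 ± 0.20, adjusted p = 0.46). Ndufa4 was at 15.09, 15.52, 15.11 and 15.18 in BYS and at 15.06, 14.69, 14.94 and 13.85 in BYA, where replicate 4 was lowest. Without BYA replicate 4 the Ndufa4 difference was -0.31. Atp5j, Sdha and Ndufb4 followed, with differences of -0.36, -0.41 and -0.40. The Ndufb4 level came from 1 of its 2 probes, the other having missing values in SNS. That other probe averaged 15.35 in BYS and 15.50 in BYA, the opposite direction. The Sdha difference was -0.17 without BYA replicate 1, and that of Atp5j was -0.20 without BYA replicate 3 and -0.54 without BYA replicate 1. The extreme of the range, Ndufa11 at -0.72, came from BYA replicate 3, at 9.55 against 12.49 to 12.92 in the other 3.

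For PMX53, no member was called, where 0.0351% of all genes were, and 10 members had an unadjusted p under 0.05, 5 in each direction, where 8.51% of all genes did. The median difference was 0.00. Cox6c-ps1 was at 10.27, 10.35, 10.57 and 10.61 in BYS and at 11.03, 11.80, 11.18 and 11.45 in BYP, a difference of 0.91 ± 0.19 that did not pass (adjusted p = 0.15). Its groups did not overlap, as for 4 of 92 members and 4.77% of all genes. Without BYA replicate 3 in the fit, the adjusted p of Cox6c-ps1 was 0.030. Cox7c was at 10.85, 10.72, 11.02 and 11.27 in BYS and at 11.34, 11.39, 11.44 and 11.59 in BYP (0.48 ± 0.16, adjusted p = 0.39). Uqcrc2, a core protein of complex III, was at 11.31 and 12.42 in BYP replicates 1 and 2, which share an array, and at 14.01 and 13.90 in replicates 3 and 4, so that its difference of -1.09 ± 0.42 (adjusted p = 0.47) rests on 1 array (-0.53 without replicate 1). The core subunit Ndufs8 (-0.46 ± 0.18) and Atp5g3 (0.31 ± 0.12) completed the 5 with the lowest p. The 2 probes of Atp5g3 went in opposite directions, averaging 11.806 and 14.952 in BYS and 12.518 and 14.855 in BYP. Without BYP replicate 2 the Ndufs8 difference was -0.28.

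Against the primed rats without spasms, no member was called in BYA minus BNS, where 0.117% of all genes were, or in BYP minus BNS, where 1.51% were. These comparisons share the BNS samples. Members with an unadjusted p under 0.05 numbered 7 and 12, where 13.1% and 17.8% of all genes had one, and the median differences were -0.01 and -0.07. In BYA, the lowest p was that of Cox6b2, at 13.19, 13.12, 13.31 and 13.24 in BNS and 13.42, 13.89, 13.84 and 13.76 in BYA (0.51 ± 0.14, adjusted p = 0.16), followed by Ndufa4, Ndufa8, Sdha and Atp5j at -0.63, -0.33, -0.45 and -0.34. Without BYA replicate 4 Ndufa4 was at -0.35, without BYA replicate 1 Sdha was at -0.21, and Atp5j was at -0.18 without BYA replicate 3 and at -0.52 without BYA replicate 1. In BYP, Cox6c-ps1 was 0.76 ± 0.19 higher (adjusted p = 0.052), without overlap between groups, as for 9 of 92 members and 13.3% of all genes. Its adjusted p fell to 0.037 with the local correction, where 2.34% of all genes were called, and to between 0.022 and 0.050 when BYA replicate 1, 2 or 3 or BYP replicate 1 was left out. Cox6c was not called beside it (0.11, 0.16 and 0.16 in the comparisons of BYP with BNS, BYS and BYA). Uqcrc2, Atp5f1, Ndufs8 and Ndufa9 had differences of -1.27, -0.34, -0.52 and -0.37, and Uqcrc2 reached an adjusted p of 0.049 without BYP replicate 3, while its difference was -0.71 without BYP replicate 1. That of Ndufs8 was -0.33 without BYP replicate 2. In BYP minus BYA, the direct comparison of the treatments, no member was called, where 0.158% of all genes were, and 7 had an unadjusted p under 0.05, where 13.7% of all genes did. Cox6c-ps1 (0.73, adjusted p = 0.10, and 0.94 with adjusted p = 0.013 without BYA replicate 3), Ndufv3 (-0.27), Ndufb5 (-0.33), Uqcrc2 (-1.14) and Atp5j (0.36) had the lowest p. Uqcrc2 was at -0.58 without BYP replicate 1, Ndufb5 at -0.20 without BYP replicate 2, and Atp5j at 0.20 without BYA replicate 3 and at 0.54 without BYA replicate 1.

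The processed signals gave 13 calls in BNS minus SNS (13.7% of all genes), the replicate number as a block 27 (29.8%), and the test named in the methods, at its own threshold without adjustment over genes, 40 (37.5%). That test passed 1 member in BYS minus BNS (8.04% of all genes), 6 in BYA minus BYS (5.85%) and 5 in BYP minus BYS (6.44%). It passed 6 in BYA minus BNS (11.1%), 10 in BYP minus BNS (16.5%) and 5 in BYP minus BYA (8.16%). In BYP minus BNS the replicate block gave 1 call, Cox6c-ps1 (2.01% of all genes). Loess and Aquantile normalization, on the 18 samples with both channels in hand, gave 1 call in BYP minus BYS (0.176%), 1 in BYA minus BNS (1.91%), 1 in BYP minus BNS (2.40%) and 2 in BYP minus BYA (3.05%). Of BYA, these 18 samples held only replicates 1 and 2, which share 1 array. Cox6c-ps1 was called higher in BYP against BYS, BNS and BYA (adjusted p = 0.017, 0.011 and 0.0014). The other calls were Sdha, higher in BYP minus BYA, and Ndufb4l1, lower in BYA minus BNS. Scaling to a common median gave 7 in BYP minus BYS, all lower (16.5%).

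Over the 6 comparisons other than BNS minus SNS, 13 of 552 differences exceeded 0.5 in size, and they belonged to 6 members: Cox6c-ps1, Uqcrc2, Ndufa11, Ndufa4, Cox6b2 and Ndufs8. The interval, again with samples taken as independent, lay within 1 of 0 for 88 to 90 of the 92 members in each comparison. None of the 12 isoform genes was called in them. Cox4i1, the general form of a regulatory complex IV subunit, was at 16.62 ± 0.21, 16.41 ± 0.02, 16.37 ± 0.13, 16.44 ± 0.11 and 16.42 ± 0.05 in SNS, BNS, BYS, BYA and BYP. Its oxygen-sensitive counterpart Cox4i2 was at 11.45 ± 0.76, 11.29 ± 0.16, 11.40 ± 0.34, 11.67 ± 0.17 and 11.76 ± 0.31, and was called in none of the 7 comparisons. The muscle form Cox6a2 ranged from 11.82 ± 0.32 in BNS to 12.24 ± 0.38 in BYP. None of the other pathway lists above, the mitochondrially encoded subunits included, had a gene called in these 6 comparisons.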

How the data were processed

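RNA of 20 female ARC samples was hybridised to Agilent 2-colour rat arrays by the authors, who deposited unnormalized Feature Extraction intensities (version 11.5.1.1 per the file headers, 10.7.3.1 per the labels). Groups came from the labels, and 82 columns of samples outside these groups were not used. From the deposited mean signal and local background intensities of each channel, outlier spots (1.18%) were removed, background was corrected with normexp (offset 50), log2 values were quantile normalized between channels, spots of a probe and then probes of a gene were averaged, and genes with a probe well above background in all 4 samples of a group were kept. Differences were tested with limma 3.58.1 (statmod 1.5.0, R 4.3.3; lmFit and eBayes, all 20 samples, dye as covariate), a linear model across all genes with Benjamini-Hochberg adjustment, in place of the methods' t-test, which was an alternative. On simulated data (BYS minus BNS, 17072 genes, 200 changed by 1 on the log2 scale), 94% of changed genes were recovered, with 3 false calls among 191. The number of arrays limits the precision.

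Named genes were the 5 largest rises and 5 largest falls among called members whose groups did not overlap, or, where fewer passed, the 5 members with the lowest p, beside fixed catalytic and isoform subunits and a few regulators. The values of 1 gene are not reported here. Members and lists were chosen with earlier results of these data known. Alternatives were other scalings, the processed signals, filters, array or replicate blocks, leaving out each sample and, added after seeing the data, the local correction. Replicate numbers did not pair samples, since deviations of same-numbered samples correlated between -0.24 and 0.28.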

Additional observations from a re-analysis of the deposited data

Results flagged for a closer look

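In each group of 4, a value was looked at again when its gap to the nearest other sample, as a share of the range of the group, exceeded Dixon's 95% critical value. Of 261 groups examined, 10 did so, and chance alone gives about 1 in 20. In BNS, replicate 3 stood low for the level of complex III (share 0.841, -0.04 against 0.11 to 0.14), Ndufa4 (0.957, 15.01 against 15.35 to 15.36), Ndufb4 (0.885, 13.91 against 13.96 to 13.97) and Uqcrfs1, the Rieske protein of complex III (0.942, 13.35 against 14.08 to 14.12). In BYP, replicate 2 stood low for Atp5o (0.887, 15.12 against 15.77 to 15.85), Ndufa8 (0.863, 12.57 against 12.72 to 12.74) and Ndufb5 (0.91, 13.47 against 14.06 to 14.11). In BYS, replicate 2 stood high for the level of complex V (0.862, 0.07 against -0.05 to -0.03) and for Ndufaf7 (0.906, 9.94 against 9.59 to 9.62). In BYA, replicate 4 stood low for Cox5a, a complex IV subunit (0.893, 12.65 against 14.80 to 15.06).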

How the results depend on the processing

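With each channel shifted to a common median, the median difference of the members was -0.50 in BNS minus SNS, 0.39 in BYS minus BNS, -0.51 in BYP minus BYS (7 members called), 0.36 in BYA minus BNS, -0.14 in BYP minus BNS and -0.49 in BYP minus BYA, and the list level was 0.21 in SNS, -0.18 in BNS, 0.16 for BYS, 0.14 for BYA and -0.31 for BYP. The median of all genes moved as well, to -0.14 in BNS minus SNS and -0.17 in BYP minus BYS. With a common upper quartile, the medians were -0.18 in BNS minus SNS, -3e-04 in BYS minus BNS, 0.13 in BYA minus BYS, 0.093 in BYA minus BNS and -0.10 in BYP minus BYA, and the list levels 0.0685 in SNS, -0.0115 in BNS, -0.061 for BYS and 0.036 for BYA. With loess and Aquantile on 18 samples, 1 member was called in BYP minus BYS, 1 in BYA minus BNS, 1 in BYP minus BNS and 2 in BYP minus BYA. BYA then held only replicates 1 and 2, on 1 array. In BNS minus SNS, 13 members were called with the processed signals (median 0.025), 14 with a random block for the array, 9 with the local correction (median 0.02) and 6 with both the local correction and the block, and the median was -0.12 over probes above background in all 20 samples. The local correction and, separately, the replicate block gave 1 call in BYP minus BNS, Cox6c-ps1. The replicate block gave 27 calls in BNS minus SNS with Uqcrc2 called higher (1.13, adjusted p = 0.045), and changed no other call among the genes named by rule for each comparison. Leaving out 1 sample gave 18 to 30 calls in BNS minus SNS and 0 to 1 in each of BYP minus BYS, BYP minus BNS and BYP minus BYA. The cause of these moves was not tested. No named gene reversed a called direction under any alternative. With a common median, 9 of 43 differences of named genes changed sign, none of them called. Among the 9 were Atp5g3, Uqcrb, Ndufa12 and Ndufaf7 in BYS minus BNS, then at 0.11, 0.12, 0.15 and 0.05. Slide and group cannot be told apart. The methods' t-test threshold, computed here from the spread between samples only, passed 40 of 91 members in BNS minus SNS, against 37.5% of all genes.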
